A study of Mus musculus with 6 samples.

Results

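The genes described here are 37 mouse genes known to be induced by interferons, set as a list by name, and 35 of them could be read in kidney, among 18193 genes in all. Isg15 and Ifi44 are not analysed here; the probe set that names Isg15 names another gene too. RNA from whole kidneys was read on Affymetrix arrays, 3 of ERRa KO males, which lack the nuclear receptor ERRα, and 3 of wild-type (WT) males, all 2 to 3 months old and labelled biological replicates. Housing, diet and light were standard for all of them, and no infection or interferon treatment is named in the labels. Neither the strain, nor the part of Esrra that was removed, nor whether the WT mice were littermates is stated there. A mouse's left and right kidneys were pooled before RNA was taken, so each value averages over every cell type in them, and fewer cells of a type cannot be told apart from less RNA per cell.

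Interferons are secreted proteins that warn cells of viruses and other intruders. Type I interferons act through receptors and kinases of the JAK family to assemble a complex that holds STAT2 and IRF9 and binds the interferon-stimulated response element (ISRE) in front of its target genes. Type II interferon, made by T and NK cells, acts instead through a different motif, the gamma-activated sequence (GAS). In uninfected tissue these genes keep a low tonic level, and macrophages and endothelial cells contribute to it beside the epithelium. ERRα is best known for its control of mitochondrial genes, and it has been linked to innate immune signalling in macrophages.

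To show what such control regions look like in these genes, a stretch of promoter is given for each of the 5 genes that hold an ISRE match among the 12 with the smallest p in the comparison of genotypes. Each line runs 5′ to 3′ on the strand of the gene, from RefSeq (GRCm38.p6), and capitals mark the ISRE letters GAAANNGAAA or their reverse complement, overlapping matches joined.
Gbp3, chr3:142559969-142560058, plus strand: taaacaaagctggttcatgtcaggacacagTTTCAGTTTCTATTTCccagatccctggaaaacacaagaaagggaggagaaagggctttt
Igtp, chr11:58199492-58199581, plus strand: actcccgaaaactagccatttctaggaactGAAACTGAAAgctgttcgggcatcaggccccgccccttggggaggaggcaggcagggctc
Oas1a, chr5:120907486-120907575, minus strand: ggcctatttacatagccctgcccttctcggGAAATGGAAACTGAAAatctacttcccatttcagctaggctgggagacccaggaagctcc
Cxcl10, chr5:92349043-92349132, minus strand: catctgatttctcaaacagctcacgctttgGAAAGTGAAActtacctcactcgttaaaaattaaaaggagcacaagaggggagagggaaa
Bst2, chr8:71537543-71537632, minus strand: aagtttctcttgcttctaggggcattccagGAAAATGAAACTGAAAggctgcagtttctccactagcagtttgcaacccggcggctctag
Isg20, which had the smallest p of all the genes listed and was added after its values were seen, has no ISRE match in its 3 windows and a GAS match (TTCNNNGAA, in capitals) in 1 of them.
Isg20, chr7:78913321-78913410, plus strand: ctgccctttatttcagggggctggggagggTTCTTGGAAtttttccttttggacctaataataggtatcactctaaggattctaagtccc

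The first capital lies 45 bases before the start site in Gbp3, 34 in Igtp, 20 in Oas1a, 213 in Cxcl10 and 130 in Bst2, and the GAS match of Isg20 lies 73 bases before it. Windows of 300 bases, 250 before and 50 after a start site, were found for 28 of the 35 genes. On either strand, 15 of the 28 genes (53.6%) hold an ISRE match in a window, against 3.99% of all 27025 genes with a window. A GAS match is held by 10 of the 28 (35.7%), against 9.55% of all genes. The extended ERR half-site TCAAGGTCA, searched on both strands, is in 0 of the 28 and in 0.466% of all genes; these letters alone were searched, in these windows alone. GAS reads as itself on the other strand, and a GAS match shares bases with an ISRE match in Bst2. A match of letters is a description and does not show that a factor binds there.

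**Figure D1:**
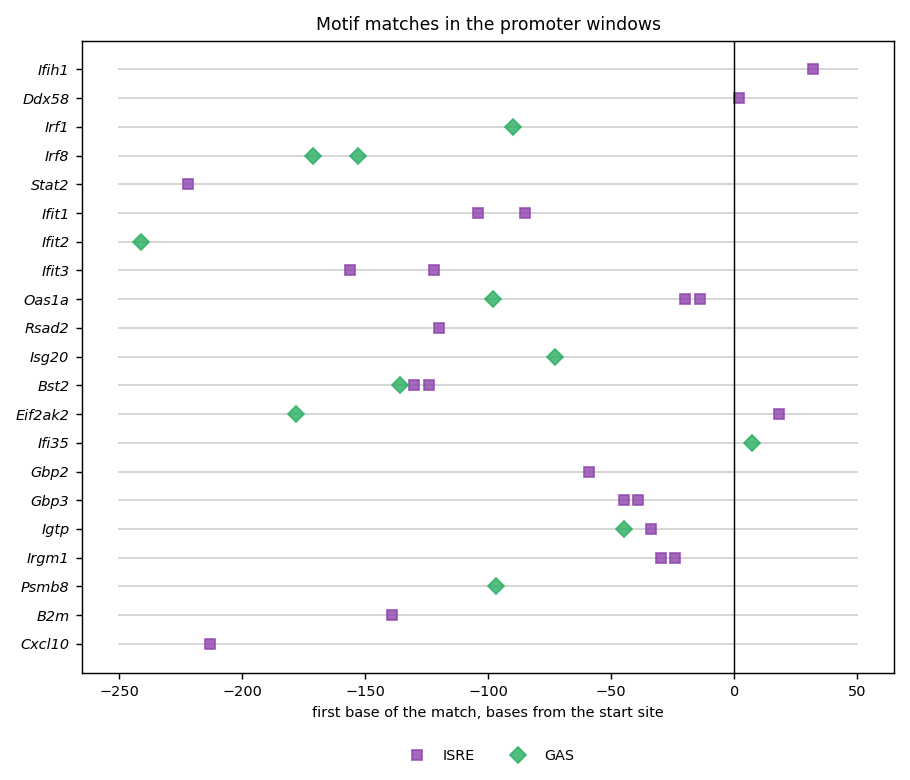
Positions of ISRE matches (squares) and GAS matches (diamonds) in the promoter windows of the 21 genes that hold one, in bases from the start site (x axis, 0 at the start site), 1 gene a row (y axis). The ISRE matches of Gbp3, Igtp, Oas1a and Irgm1 lie within 45 bases before the start site, that of Cxcl10 213 bases before it.

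Values are given as deposited, on the log2 scale after RMA (a summary of each probe set that normalizes the arrays to each other), so that a difference of 1 is a 2-fold change. Changes are ERRa KO minus WT, tested with limma, a linear model that shares variance between genes, and adjusted p-values (Benjamini-Hochberg over all genes) under 0.05 were called. Esrra itself, read first as a check of the labels, gave 6.66, 6.51 and 6.41 in ERRa KO kidneys, against 9.43, 9.43 and 9.52 in WT kidneys (log2 change -2.93, SE 0.08, limma adjusted p = 9.85e-06). All 3 ERRa KO arrays lay far below the WT arrays. The authors' deposited table has its sample columns headed with the genotypes exchanged against the series table, while its fold change column, at -2.93 for this probe set, follows the series table, which was used here. The 6 arrays had medians of 5.02 to 5.06 on the log2 scale. ERRa KO replicate 3 stood apart by liver transcripts: the albumin gene Alb read 6.48, 6.80 and 12.07 in ERRa KO kidneys, against 6.77, 6.59 and 6.72 in WT kidneys. Averaged over 14 liver transcripts, that array read 8.53, against 5.96 and 6.05 in the other ERRa KO arrays and 6.02 to 6.15 in WT arrays. The counts over the interferon-stimulated genes and several single changes are also given without it.

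No interferon-stimulated gene passed the test. By limma, 0 of 35 were called, where 0.495% of all 18193 genes were, and the smallest adjusted p was 0.0831, for Isg20. Most of the genes read slightly lower without ERRα: 27 of 35 had a change below 0, against 47.4% of all genes, and 8 were above 0. The median change of the 35 was -0.13 on the log2 scale, against 0.01 over all genes. Changes ran from -0.50 for Oasl2 to 0.41 for Cxcl10. For all 35 the 95% interval of the change stayed within a 2-fold change in either direction, its outermost bounds being -0.87 and 0.75. Of the 35 genes, 14 had a mean under 6.45, the median level over genes, and 14 had more than 1 probe set. Over all 56 probe sets 0 were called, and those of Dhx58, Gbp2, Psmb8, Rtp4 and Tap1 differed in sign.

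At an unadjusted p under 0.05, 12 of the 35 genes (34.3%) differed, against 12.4% of all genes. Of these, 9 were lower in ERRa KO kidneys, where 6.20% of all genes were both lower and under that p, and 3 were higher, where 6.22% of all genes were. The 3 ERRa KO arrays all lay below the 3 WT arrays in 8 genes (22.9%), as in 9.56% of all genes, and all above them in 3, as in 9.11% of all genes. Interferon-stimulated genes vary together from array to array, so these counts are not counts of independent genes, and they were read against all genes without a test of the list.

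**Figure D2:**
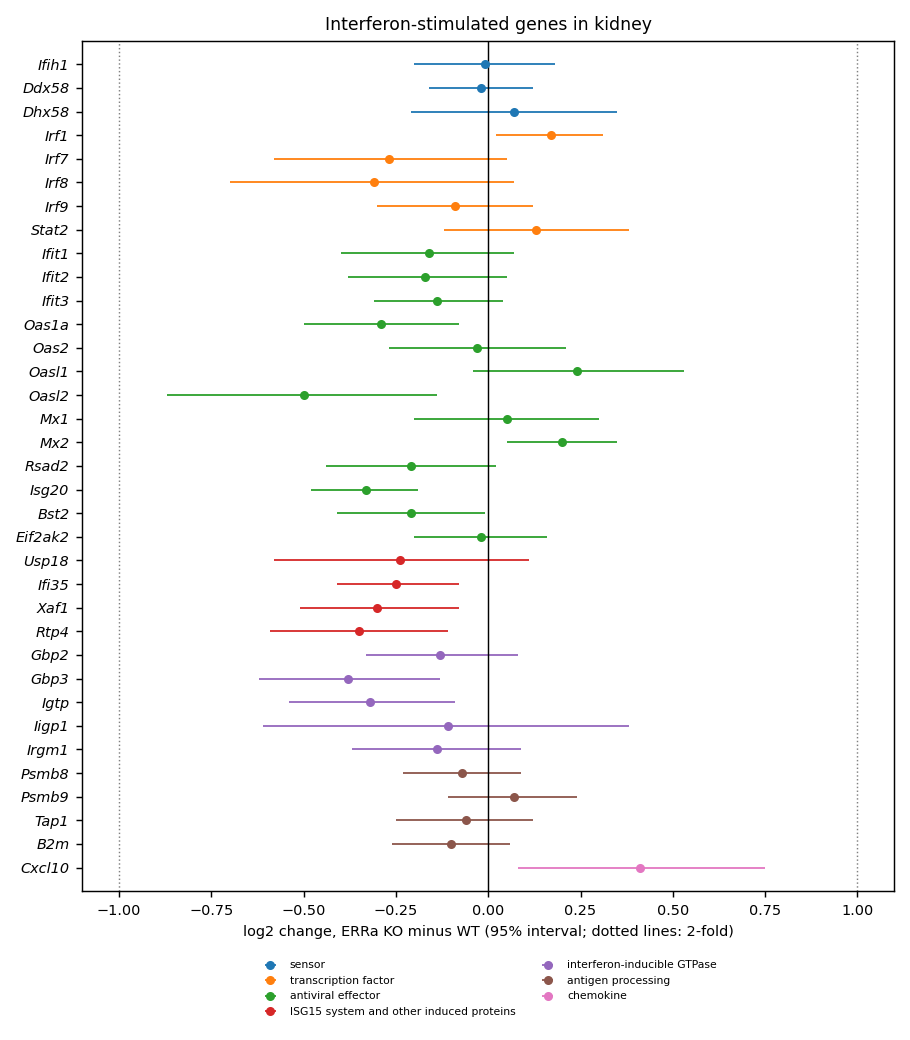
Log2 change in ERRa KO against WT kidneys (x axis) for the 35 interferon-stimulated genes (y axis, coloured by role), points with 95% intervals from limma, 3 arrays per genotype. Dotted lines mark a 2-fold change, which no interval reaches; 27 points lie left of 0 and 8 right of it.

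ERRa KO replicate 3 lay closer to the WT arrays than the other ERRa KO arrays did. It was the highest of the 3 ERRa KO arrays for 26 of the 35 genes, against 29.5% of all genes. ERRa KO replicate 2 was the lowest of them for 25, against 25.2% of all genes. Of the WT arrays, replicate 1 was the lowest for 21 genes and replicate 3 the highest for 19, against 34.0% and 33.1% of all genes. The median deviation of the 35 genes from their 6-array means was -0.09, -0.16 and 0.05 in ERRa KO arrays 1 to 3, against -0.03, 0.06 and 0.14 in WT arrays. The ERRa KO and WT ranges of this median overlap through ERRa KO replicate 3 and WT replicate 1. This pattern over the arrays was not particular to the interferon-stimulated genes. The 7 kidney markers described below had median deviations of 0.00, -0.17 and 0.06 in ERRa KO arrays 1 to 3, against -0.02, 0.06 and 0.15 in WT arrays. The part of the liver transcripts in the distance of ERRa KO replicate 3 from the other ERRa KO arrays was not tested.

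Without ERRa KO replicate 3 the median change of the 35 genes was -0.20 (all genes 0.01), and 28 read lower. At an unadjusted p under 0.05 there were then 16, of which 14 were lower, against 12.4% of all genes under that p. The 2 remaining ERRa KO arrays lay below all WT arrays in 19 genes, as in 13.7% of all genes, and above them in 3, as in 17.0% of all genes. Still 0 of 35 passed the adjusted threshold, with the smallest adjusted p at 0.0908 for Gbp3 (limma). Leaving out ERRa KO replicate 2 weakened the lower reading: the median was -0.07, and 23 of 35 read lower. At an unadjusted p under 0.05 (limma) there were then 9, and the share of all genes was not counted for that setting. Without WT replicate 3 the median was -0.10, and 24 read lower. Many of the changes given below also moved in size without ERRa KO replicate 3. Those that grew included Oas2, Tap1, Gbp2, Usp18, Ifit1 and B2m, at -0.15, -0.13, -0.21, -0.37, -0.24 and -0.15. Among them too were Oasl2, Gbp3, Irf7, Irf8, Xaf1, Irgm1 and Ifit2, at -0.62, -0.49, -0.39, -0.39, -0.36, -0.20 and -0.23. Those that shrank included Oasl1 and Irf1, at 0.14 and 0.13.

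**Figure D3:**
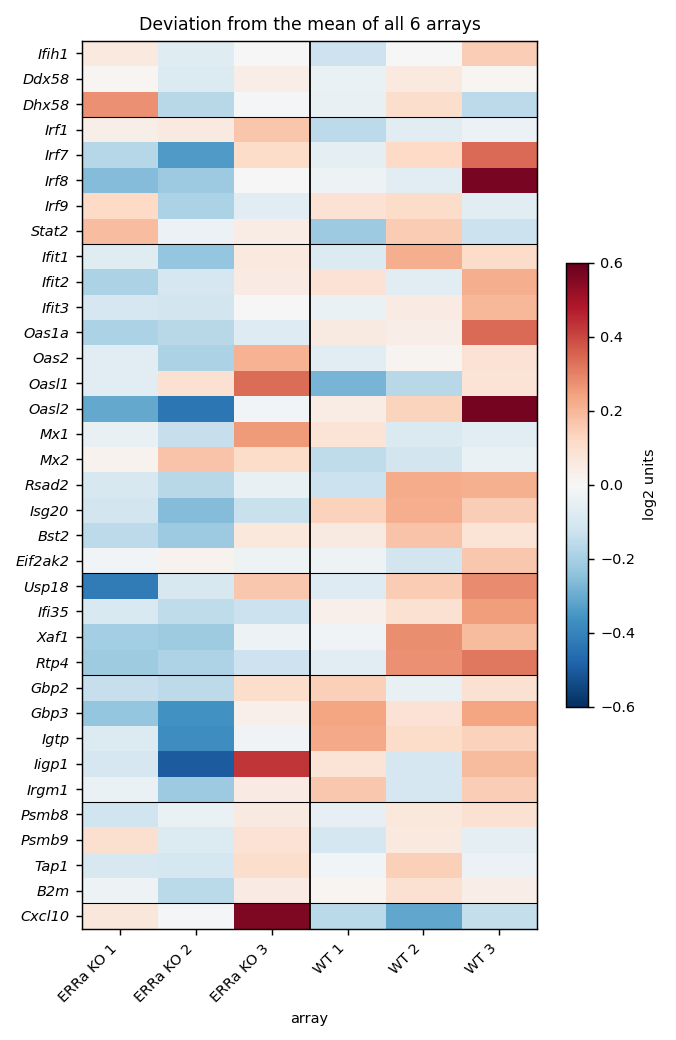
Deviation of each of the 35 genes (rows, grouped by role, lines between roles) from its own mean over 6 arrays, in log2 units (colour), by array (columns, ERRa KO left of the line, WT right of it). ERRa KO replicate 2 is mostly below the mean, with a median of -0.16, and WT replicate 3 mostly above it, with a median of 0.14.

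The 3 cytosolic sensors of viral RNA had changes of -0.02 to 0.07. Ifih1, which encodes the long-RNA sensor MDA5, read 7.38, 7.25 and 7.32 in ERRa KO kidneys, against 7.20, 7.32 and 7.47 in WT kidneys (change -0.01, 95% interval -0.20 to 0.18). Ddx58, which encodes RIG-I, the sensor of RNA ends with phosphates, read 7.60, 7.51 and 7.63 in ERRa KO kidneys, against 7.55, 7.65 and 7.60 in WT kidneys (change -0.02, 95% interval -0.16 to 0.12). The arrays of the genotypes were interleaved for both. Dhx58, whose product LGP2 tunes these sensors, averaged 3.90 ± 0.22 in ERRa KO and 3.83 ± 0.13 in WT kidneys (SD, n = 3 each), below the median of every array and therefore in the range that RMA compresses.

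The 5 transcription factors of the response differed in sign. Irf1, the early activator induced through GAS sites, read 7.72, 7.74 and 7.85 in ERRa KO kidneys, against 7.53, 7.62 and 7.65 in WT kidneys, so all ERRa KO arrays lay above all WT arrays (change 0.17, SE 0.06, limma adjusted p = 0.337). Irf7, the amplifier of type I interferon production, read 5.95, 5.78 and 6.23 in ERRa KO kidneys, against 6.06, 6.24 and 6.46 in WT kidneys (change -0.27, limma adjusted p = 0.489). Irf8, a factor of macrophage and dendritic cell development, read 6.24, 6.28 and 6.50 in ERRa KO kidneys, against 6.47, 6.43 and 7.07 in WT kidneys. WT replicate 3 alone was high for Irf8, and the genotypes overlapped (change -0.31, limma adjusted p = 0.505). Of the ISRE-binding complex, Irf9 had a change of -0.09 and Stat2 of 0.13, with limma adjusted p of 0.743 and 0.669.

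The 13 genes grouped as antiviral effectors had a median change of -0.16, with 10 lower and 3 higher in ERRa KO. Isg20, an exonuclease of viral RNA, read 6.34, 6.19 and 6.32 in ERRa KO kidneys, against 6.59, 6.67 and 6.60 in WT kidneys. The groups did not overlap and each was tight, and the level was 1.26-fold lower in ERRa KO kidneys (change -0.33, SE 0.06, limma adjusted p = 0.0831). When the 9096 genes above the median level were fitted alone, 1 of the 21 interferon-stimulated genes among them passed, Isg20, at an adjusted p of 0.029, where 2.42% of those genes passed.

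The oligoadenylate synthetase family is named for enzymes that make the signal that switches on the RNA-degrading RNase L. Of its listed genes, Oasl1 alone had a change above 0. Oas1a read 6.53, 6.55 and 6.64 in ERRa KO kidneys, against 6.77, 6.76 and 7.06 in WT kidneys (change -0.29, SE 0.09, limma adjusted p = 0.246). Oasl2, a family member that interferons induce strongly in mouse cells, read 5.46, 5.33 and 5.75 in ERRa KO kidneys, against 5.81, 5.90 and 6.34 in WT kidneys (change -0.50, SE 0.16, limma adjusted p = 0.247). Neither overlapped between genotypes, though the lowest WT array of Oasl2 was only just above ERRa KO replicate 3, and without WT replicate 3 the changes were -0.19 for Oas1a and -0.34 for Oasl2. Oasl1, which restrains the translation of Irf7, read 5.24, 5.40 and 5.64 in ERRa KO kidneys, against 5.03, 5.14 and 5.39 in WT kidneys, with overlap (change 0.24, limma adjusted p = 0.487). Oas2 had a change of -0.03. Members of this family resemble each other in sequence, so their probes may read more than 1 of them.

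The IFIT proteins, which bind foreign RNA caps and ends, had changes of -0.16 for Ifit1, -0.17 for Ifit2 and -0.14 for Ifit3, with limma adjusted p of 0.567, 0.524 and 0.523. The 3 genes lie side by side on chromosome 19, and each overlapped between genotypes. Rsad2, whose product viperin blocks viral RNA synthesis, read 8.80, 8.73 and 8.85 in ERRa KO kidneys, against 8.77, 9.12 and 9.11 in WT kidneys (change -0.21, limma adjusted p = 0.457). WT replicate 1 lay among the ERRa KO arrays, and all 3 probe sets of Rsad2 gave a change below 0 (-0.21, -0.17 and -0.14). Bst2, the tether that holds budding virus on the cell, read 7.01, 6.95 and 7.23 in ERRa KO kidneys, against 7.22, 7.34 and 7.25 in WT kidneys (change -0.21, SE 0.08, limma adjusted p = 0.37). Here ERRa KO replicate 3 alone reached the WT level, and without it the change was -0.29 (adjusted p = 0.169).

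The dynamin-like GTPase genes Mx1 and Mx2 both had changes above 0. Mx2 read 5.09, 5.24 and 5.18 in ERRa KO kidneys, against 4.92, 4.96 and 5.03 in WT kidneys, without overlap (change 0.20, SE 0.06, limma adjusted p = 0.256). Mx1, which carries inactivating mutations in many laboratory strains, averaged 3.16 ± 0.21 in ERRa KO and 3.11 ± 0.09 in WT kidneys (SD, n = 3 each), the dimmest of the 35 genes. Its change was 0.05, and -0.07 without ERRa KO replicate 3. Eif2ak2, which encodes the kinase PKR that halts translation on double-stranded RNA, had a change of -0.02 (95% interval -0.20 to 0.16).

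**Figure D4:**
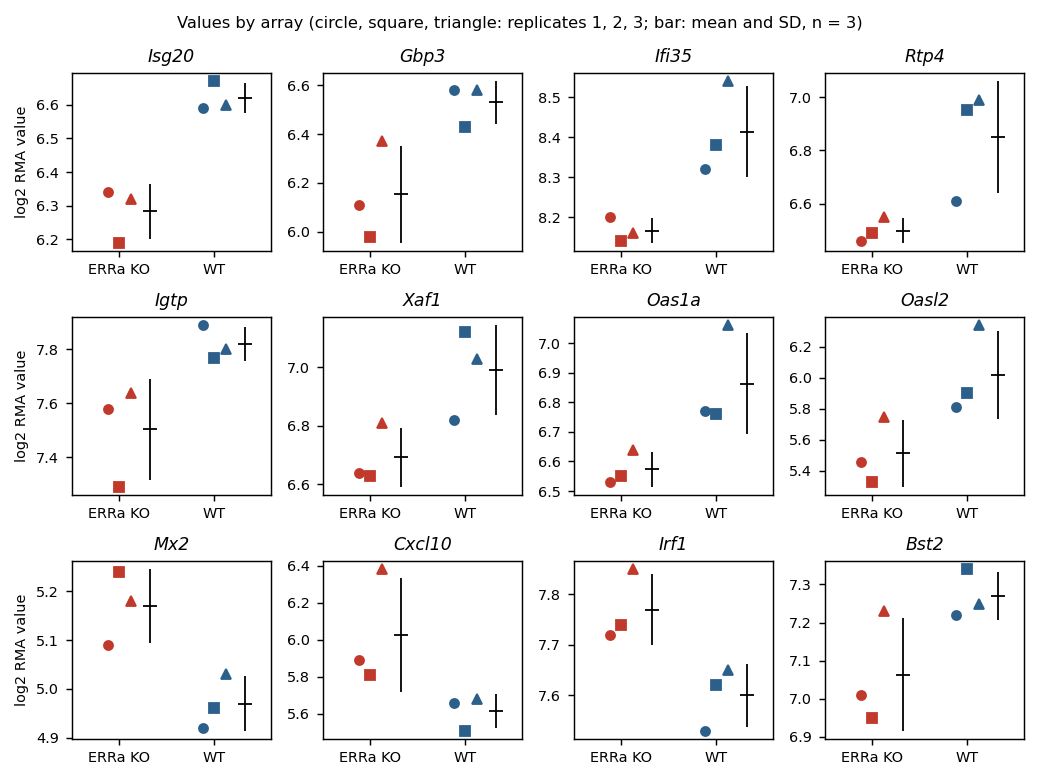
Log2 RMA values (y axis, its range differs by panel and does not start at 0) by genotype (x axis) for the 12 genes with the smallest limma p, each symbol 1 array and the bar the mean with its SD, n = 3. Isg20, Gbp3, Ifi35, Rtp4, Igtp, Xaf1, Oas1a and Oasl2 lie lower in all ERRa KO arrays, Mx2, Cxcl10 and Irf1 higher, and Bst2 overlaps.

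All 4 measured genes of the group of ISG15 pathway and other induced proteins read lower, with a median of -0.27. Ifi35, a partner of the STAT-binding protein NMI, read 8.20, 8.14 and 8.16 in ERRa KO kidneys, against 8.32, 8.38 and 8.54 in WT kidneys (change -0.25, SE 0.07, limma adjusted p = 0.21). Its other 2 probe sets had changes of -0.19 and -0.11. Xaf1, an inhibitor of the caspase blocker XIAP, read 6.64, 6.63 and 6.81 in ERRa KO kidneys, against 6.82, 7.12 and 7.03 in WT kidneys (change -0.30, SE 0.09, limma adjusted p = 0.242). ERRa KO replicate 3 and WT replicate 1 nearly met.

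Rtp4, a receptor transporter that also binds viral RNA, read 6.46, 6.49 and 6.55 in ERRa KO kidneys, against 6.61, 6.95 and 6.99 in WT kidneys. The change was -0.35 (SE 0.10, limma adjusted p = 0.222), and the dimmer of its 2 probe sets, with a mean of 3.58, had a change of 0.05, so that the mean of both gave -0.15. Usp18, the protease that removes ISG15 and damps receptor signalling, read 5.23, 5.55 and 5.81 in ERRa KO kidneys, against 5.57, 5.80 and 5.93 in WT kidneys (change -0.24, limma adjusted p = 0.585). Each ERRa KO array but the third lay below all WT arrays for Usp18.

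The 5 interferon-inducible GTPases, which attack the vacuoles of intracellular microbes and answer mainly to type II interferon, all read lower, with changes from -0.38 to -0.11 and a median of -0.14. Gbp3 read 6.11, 5.98 and 6.37 in ERRa KO kidneys, against 6.58, 6.43 and 6.58 in WT kidneys, 1.30-fold lower in ERRa KO kidneys (change -0.38, SE 0.10, limma adjusted p = 0.2). Igtp, also called Irgm3, read 7.58, 7.29 and 7.64 in ERRa KO kidneys, against 7.89, 7.77 and 7.80 in WT kidneys (change -0.32, SE 0.10, limma adjusted p = 0.235). Both were without overlap, and without ERRa KO replicate 2 the change of Igtp was -0.21. Iigp1 was the most variable of these genes between ERRa KO kidneys, at 7.15, 6.75 and 7.68, against 7.33, 7.15 and 7.44 in WT kidneys (change -0.11, limma adjusted p = 0.865). Without ERRa KO replicate 3 the change of Iigp1 was -0.36 (adjusted p = 0.357). Irgm1 and Gbp2 had changes of -0.14 and -0.13, each with a limma adjusted p of 0.616, and the second probe set of Gbp2, nearly as bright, gave 0.07. The GBP and IRG families are multigene families, so which copy their probes read is uncertain.

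The 4 antigen-processing genes were close between genotypes. B2m, the light chain of MHC class I, read 11.90, 11.77 and 11.98 in ERRa KO kidneys, against 11.94, 12.02 and 11.97 in WT kidneys (change -0.10, 95% interval -0.26 to 0.06). The immunoproteasome subunit genes Psmb8 and Psmb9 had changes of -0.07 and 0.07, and the peptide transporter gene Tap1 had -0.06, with limma adjusted p of 0.736, 0.759 and 0.793. All 4 overlapped between genotypes, and their 95% intervals stayed between -0.26 and 0.24.

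Cxcl10, which draws T and NK cells, was the 1 chemokine of the interferon-stimulated genes. It was 1 of the 8 genes with a change above 0. It read 5.89, 5.81 and 6.38 in ERRa KO kidneys, against 5.66, 5.51 and 5.68 in WT kidneys, without overlap (change 0.41, SE 0.14, limma adjusted p = 0.305). The highest was ERRa KO replicate 3, which carried the liver transcripts, and without it the change was 0.23 (adjusted p = 0.288). In the list of other interferon-induced genes, described below, the chemokine genes Ccl5, Cxcl11 and Cxcl9 had changes of 0.57, 0.16 and 0.04. Ccl5 read 5.64, 5.35 and 5.36 in ERRa KO kidneys, against 5.06, 5.09 and 4.48 in WT kidneys, without overlap (limma adjusted p = 0.222). Without ERRa KO replicate 3 the change of Ccl5 was 0.62. Cxcl11 was also without overlap, and Cxcl9 overlapped.

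Genes with and without a promoter match are set side by side next. The 15 genes with an ISRE match had a median change of -0.14, 13 lower and 2 higher, and the 13 genes with a window and no match had -0.17, 10 lower and 3 higher. For GAS, 10 genes with a match had a median of -0.23 and 18 without one had -0.12, both groups spanning 0. These medians are over genes of the same arrays and were not tested against each other.

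Other genes of the pathway, from lists set by name were read the same way, and limma called none of them. Among 49 other interferon-induced genes the median change was -0.05. Below 0 were 28 of them, above 0 were 21, and 0 passed. Unadjusted p-values under 0.05 were found for 12 genes (24.5%), against 12.4% of all genes. In 9 of these 12 the change was below 0, and in 3 above it. Over all genes, 6.20% had such a p with a change below 0, and 6.22% with one above it. Genotypes did not overlap in 11 genes that were lower in ERRa KO (22.4%, against 9.56% of all genes). The same held for 5 genes that were higher, against 9.11% of all genes. Ifi27, a mitochondrial interferon-induced protein, read 9.17, 9.19 and 9.24 in ERRa KO kidneys, against 8.81, 8.89 and 8.93 in WT kidneys (change 0.32, adjusted p = 0.074). Its relative Ifi27l2a went the other way, at 8.21, 8.10 and 8.29 in ERRa KO kidneys, against 8.58, 8.49 and 8.70 in WT kidneys (change -0.39, adjusted p = 0.0944). Mndal, of the DNA-sensing IFI200 family, had a change of -0.33 (adjusted p = 0.0871). These 3 had the smallest p of that list, did not overlap between genotypes, and passed with a trended and robust variance prior, where 2.08% of all genes passed, and when only genes above the median level were fitted, where 2.42% did.

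Above the response, 0 of 15 measured interferon and receptor genes passed, 6 lower and 9 higher. An unadjusted p under 0.05 was found for 3 of them (20.0%), against 12.4% of all genes. Ifnar2, a chain of the type I receptor, read 8.34, 8.24 and 8.30 in ERRa KO kidneys, against 8.49, 8.51 and 8.50 in WT kidneys (change -0.21, adjusted p = 0.183). Il10rb, a chain shared by the receptors of IL-10 and the lambda interferons, had a change of -0.19 (adjusted p = 0.213), and Ifna1, at a mean of 4.57 in ERRa KO and 4.32 in WT kidneys and dim in both, 0.24 (adjusted p = 0.221). The main type I receptor partner Ifnar1 had -0.04. Of 12 measured genes for JAK kinases, STATs and their inhibitors 0 passed, 0 had an unadjusted p under 0.05 and 9 read lower; the smallest p were those of the phosphatase gene Ptpn2 (-0.20, adjusted p = 0.423), Stat3 (-0.12, adjusted p = 0.472) and Jak2 (-0.12, adjusted p = 0.538).

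Of 19 genes that sense nucleic acids upstream of the interferons 0 passed and 3 had an unadjusted p under 0.05 (15.8%, against 12.4% of all genes). They were the endosomal RNA receptor gene Tlr3 (-0.21, adjusted p = 0.221), the transcription factor gene Irf5 (0.19, adjusted p = 0.283) and the nucleotide hydrolase gene Samhd1 (-0.28, adjusted p = 0.289). Among 14 genes of MHC class I and peptide loading 0 passed, 1 (7.1%) had an unadjusted p under 0.05, and the median was -0.01. That gene was H2-Q10, known for its liver expression, with 4.35, 4.71 and 6.61 in ERRa KO kidneys, against 3.97, 3.90 and 3.71 in WT kidneys, highest in the array with liver transcripts (change 1.36, adjusted p = 0.337); without that array the change was 0.67 (adjusted p = 0.118). The next in that list were H2-K1 (0.17, adjusted p = 0.416) and Pdia3 (-0.17, adjusted p = 0.419). Of 14 targets of NF-kB, the other main factor of inflammation, 0 passed and 1 (7.1%) had an unadjusted p under 0.05, with a median of -0.02. The smallest p were those of the adhesion genes Icam1 (-0.20, adjusted p = 0.37) and Vcam1 (0.17, adjusted p = 0.447) and the chemokine gene Cxcl2 (0.13, adjusted p = 0.485), and the feedback inhibitor gene Tnfaip3 had -0.01.

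Markers of macrophages, a cell type that expresses many of these genes, also read mostly lower. Of 12 macrophage markers 10 were below 0 and 2 above, with a median change of -0.15 (-0.18 without ERRa KO replicate 3); 0 passed, and 6 had an unadjusted p under 0.05, 5 of them lower. Over all genes 47.4% were below 0, 12.4% had such a p and 6.20% had it and were lower. C1qc, a subunit of complement C1q, read 6.13, 6.29 and 6.28 in ERRa KO kidneys, against 6.53, 6.49 and 6.65 in WT kidneys (change -0.32, adjusted p = 0.12). The endotoxin co-receptor gene Cd14 had a change of -0.44 (adjusted p = 0.168), while Adgre1, a defining surface marker of mouse macrophages, had 0.21 (adjusted p = 0.198) and ran the other way. The mean log2 level over the 12 markers was 6.13 to 6.17 in ERRa KO arrays, against 6.22 to 6.41 in WT arrays, and Cd68, a lysosomal marker, read 4.48 to 4.54 in ERRa KO arrays, against 4.65 to 5.19 in WT arrays. Without WT replicate 2, Cd68 passed, where 0.0715% of all genes did. By the mean level ERRa KO replicate 3 was the highest ERRa KO array for these markers, and by the median deviation it lay between the other ERRa KO arrays. The median deviations were -0.06, -0.11 and -0.07 in ERRa KO arrays 1 to 3, against 0.10, 0.00 and 0.23 in WT arrays. Their part in the lower reading of the interferon-stimulated genes was not tested.

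Markers of other cell types were compared as well. The 7 markers of all leukocytes had a median of -0.03, with 0 at an unadjusted p under 0.05, and a mean level of 6.20 to 6.27 in ERRa KO arrays, against 6.21 to 6.31 in WT arrays. T and NK cell markers had a median of 0.14 over 11 genes, 8 higher and 3 lower, and were dim, at a mean of 4.58 to 4.61 in ERRa KO arrays, against 4.47 to 4.57 in WT arrays. Endothelial markers had a median of -0.08 over 6 genes, neutrophil markers 0.01 over 5, B cell markers 0.09 over 3 and plasmacytoid dendritic cell markers 0.07 over 3, with 0 past the threshold in each. Of the neutrophil markers, the calprotectin genes S100a8 and S100a9, which other myeloid cells also express, had changes of -0.53 and -0.42 (limma adjusted p of 0.425 and 0.247), S100a9 without overlap, and their part in the lower reading of the interferon-stimulated genes was not tested. Of 7 kidney markers 4 read lower and 3 higher, with a median of -0.07. The kidney markers Slc34a1, Umod, Lrp2 and Slc12a1 were bright in both genotypes, at means of 13.63, 13.24, 12.65 and 12.35 in ERRa KO and 13.63, 13.52, 12.77 and 12.50 in WT kidneys. None of the 7 passed, and Umod (change -0.29) did with the trended and robust prior.

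**Figure D5:**
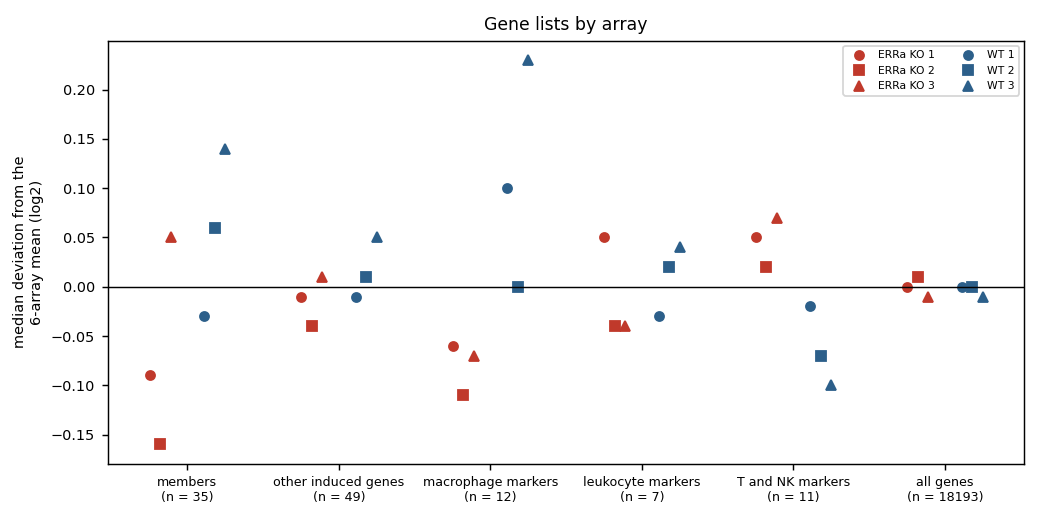
Median deviation from the 6-array mean (y axis, log2 units) of 5 gene lists and of all genes (x axis), 1 symbol per array, ERRa KO left of WT. The interferon-stimulated genes, labelled members, lie at -0.09, -0.16 and 0.05 in ERRa KO arrays and at -0.03, 0.06 and 0.14 in WT arrays; the macrophage markers are below 0 in every ERRa KO array.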

How the data were processed

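The authors deposited log2 expression values made with RMA, per the submitters' processing notes; software and settings are not given in those notes. RMA quantile normalizes the arrays and compresses low levels. The authors' deposited table adds an unadjusted p-value and a log2 fold change per probe set, its test not stated in the header; its genotype heads are exchanged against the series table for 6 of 6 arrays, and the series table was used.

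Of 45037 probe sets without controls, 34945 name 1 gene in the platform annotation (34741 matched by identifier to GRCm38.p6). Each gene was read from its brightest probe set (by mean over 6 arrays), giving 18193 genes with no filter and no pseudocount. Limma 3.58.1 in R 4.3.3 (lmFit, eBayes, genotype only, two-sided) was fitted to all genes, with Benjamini-Hochberg adjustment over all of them and 0.05 as the threshold. Values are ERRa KO minus WT with the standard error (SE) and 95% interval of the fit. Precision is limited by 3 arrays per genotype; the labels call them biological replicates without saying that each is a separate animal.

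The genes and lists were chosen with earlier results of these data known. Named in full are the 12 with the smallest p, with up to 3 from each other list of the pathway and of macrophages; other genes were chosen after their values were seen. Same-numbered arrays did not deviate together (correlations of -0.039, -0.003 and -0.078), and differently numbered ones gave -0.068 to 0.097. The main fit therefore did not pair arrays by number. These correlations cannot exclude that some arrays share a litter or a day of preparation. Alternatives were each array left out, a replicate block, array weights, a trended robust prior, repeated quantile normalization, only genes above the median level, the mean of a gene's probe sets and a fit of all probe sets.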

Additional observations from a re-analysis of the deposited data

How the results depend on the processing

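The count of interferon-stimulated genes past the threshold was 0 in the main setting and in 12 of 13 alternatives, those being each array left out, the replicate block, array weights, the trended robust prior, repeated quantile normalization, averaged probe sets and the probe set fit. It was 1, lower in ERRa KO (Isg20), when only genes above the median level were fitted, which tests 9096 genes in place of 18193. The count over all genes was less stable: against 90 it was 18 with the replicate block, which has fewer residual degrees of freedom, 379 with the trended robust prior, 220 above the median level, 50 in the probe set fit, and 10 to 39 with 1 array left out. Among the 12 genes with the smallest p no direction turned in 152 refits, and 151 kept their side of the threshold. These counts say little about robustness, because the 12 were picked by p in these same data and the refits share most of it. All but Bst2 were without overlap, so leaving out 1 array could not turn them, and none was past the threshold in the main setting. The median change of the 35 genes stayed between -0.20 and -0.07 in all 13, the bounds coming from leaving out ERRa KO arrays 3 and 2; exchanging the genotypes as the authors' table heads them, chosen after seeing the data, turns it to 0.13 and every direction with it. Without ERRa KO replicate 3, also chosen after seeing the data, 22 of the 35 genes were without overlap in place of 11. With fewer arrays the genotypes separate more easily in any gene. Over all genes the share without overlap rose from 9.56% to 13.7% for lower and from 9.11% to 17.0% for higher. The cause of the rise among the 35 was not tested. Dim genes such as Mx1 and Dhx58 are limited by the compressed low range.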
